A study of Mus musculus with 9 samples.

Results

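The proteasome genes described here are the genes whose symbol is Psm, followed by one letter from a to g and a number, without the 3 interferon-inducible catalytic subunits Psmb8, Psmb9 and Psmb10. The rule found 45 of the 24341 genes counted in mouse embryonic fibroblasts (MEFs), and it used no measured value. By their known roles they are 8 genes of the alpha ring and 8 of the beta ring of the 20S core, 6 ATPases, 3 other base subunits and 8 lid subunits of the 19S regulator, 3 chaperones of base assembly, 4 chaperones of 20S assembly, 4 activators and 1 inhibitor.

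The proteasome is the protease that degrades proteins tagged with ubiquitin. The beta ring holds the proteolytic sites inside a barrel closed by the alpha rings, and the 19S regulator recognizes ubiquitin, removes it, and unfolds the substrate with its ring of ATPases before threading it into the core. When proteasome activity is limiting, cells are known to raise many subunit genes together through NRF1 (gene Nfe2l1), which binds antioxidant response elements as a partner of small Maf proteins. In fibroblasts the constitutive catalytic subunits prevail, and interferon-gamma induces their immunoproteasome counterparts.

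RNA-Seq was performed on poly(A)-selected RNA of 9 MEF samples of strain C57BL/6, 3 labelled WT, 3 Atm-/- and 3 Sirt6-/-. Between 32187040 and 33837949 reads were counted on genes in each sample, so that 3 counts equal 0.0887 to 0.0932 CPM, the unit of read counts scaled to a common library size. The labels name mice of wildtype, Sirt6-/-, P53-/- and Atm-/-P53-/- genotype as sources of the cells and do not say which samples lacked p53. The methods of the study list an Atm-/-; p53-/- and a Sirt6-/- line of immortalized MEFs, from separate laboratories, as well as primary MEFs. Which of these were sequenced is not stated, nor whether the samples of a genotype were separate cultures. P-values therefore measure the spread between these samples, which may be technical.

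The libraries labelled Sirt6-/- held 0.123, 0.155 and 0.21 CPM of Sirt6, below the 12.9 to 15.3 CPM of WT. Atm was not lower in the libraries labelled Atm-/-, where it reached 109, 102 and 102 CPM against 48.2, 51.7 and 51.7 CPM in WT. A count over the whole gene cannot check an allele that still makes RNA, so the Atm label has no check in these data. Trp53, which encodes p53, was at 23.3, 27 and 27.4 CPM in the libraries labelled Atm-/-, at 208 to 227 CPM in WT and at 276 to 282 CPM in Sirt6-/-. Loss of p53, the cell line and the Atm label cannot be told apart in the comparison with WT. For Sirt6-/- against WT, the Sirt6 label and the cell line cannot be told apart. In the direct comparison the Trp53 level, the cell line and both labels cannot be told apart. Of 10 fibroblast markers 9 averaged at least 1 CPM in WT and in the libraries labelled Atm-/-, and 8 did in Sirt6-/-. Lum was under 0.32 CPM in every sample, at 0 in the libraries labelled Atm-/-, and Thy1 averaged 24.4 CPM in WT, 87.3 in the libraries labelled Atm-/- and 0.47 in Sirt6-/-. The summed level of the 10 markers was 27665 to 30790 CPM in WT, 8735 to 8996 in the libraries labelled Atm-/- and 18747 to 19146 in Sirt6-/-. Against WT, of the 9 tested, only Thy1 rose and 8 fell in the libraries labelled Atm-/- (100% called, beside 68.4% of all genes). In Sirt6-/- 6 fell, Thy1 among them, and 3 rose, Pdgfrb, Col1a2 and Dcn (100%, beside 76.6%). Directly, 1 was higher in the libraries labelled Atm-/- and 7 lower (88.9%, beside 75.8%). Of the leukocyte markers Ptprc stayed under 0.2 CPM in every sample and Cd68 averaged 3.36 CPM in WT, 2.73 in the libraries labelled Atm-/- and 1.55 in Sirt6-/-.

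Of the 45 genes 43 were well expressed and entered every test. Psma8, the alpha subunit of spermatocytes, was at 0 counts in all WT and Sirt6-/- samples and at 7, 1 and 0 counts in the libraries labelled Atm-/-. Psmb11, the catalytic subunit of thymic cortical epithelium, had 3, 1 and 2 counts in WT, 3, 4 and 1 in the libraries labelled Atm-/- and 0 in the 3 Sirt6-/- samples, where 3 counts would be the detection limit. Both were too low to test.

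Per transcript length, the 31 tested subunits of the 20S core and 19S regulator lay close together. In WT their levels ran from 55 normalized CPM per kilobase for the lid subunit Psmd13 to 266 for the beta subunit Psmb4, a 4.83-fold range around a median of 125. The median per-length level was 138 in the libraries labelled Atm-/- and 113 in Sirt6-/-. The beta ring stood highest by median in each genotype, at 206 CPM per kilobase in WT, 226 in the libraries labelled Atm-/- and 162 in Sirt6-/-. Chaperones that assemble the particle and leave it were lower, with medians of 23.7 CPM per kilobase for the base chaperones and 28 for the 20S chaperones in WT. Within a genotype the 3 samples were close, with a median coefficient of variation over the 43 genes of 3.19% in WT, 2.73% in the libraries labelled Atm-/- and 3.55% in Sirt6-/-. The least reproducible gene was Psmg4 in WT and Sirt6-/- (15.7% and 25.4%) and Psmg3 in the libraries labelled Atm-/- (13.4%), both chaperones of low level.

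**Figure D1:**
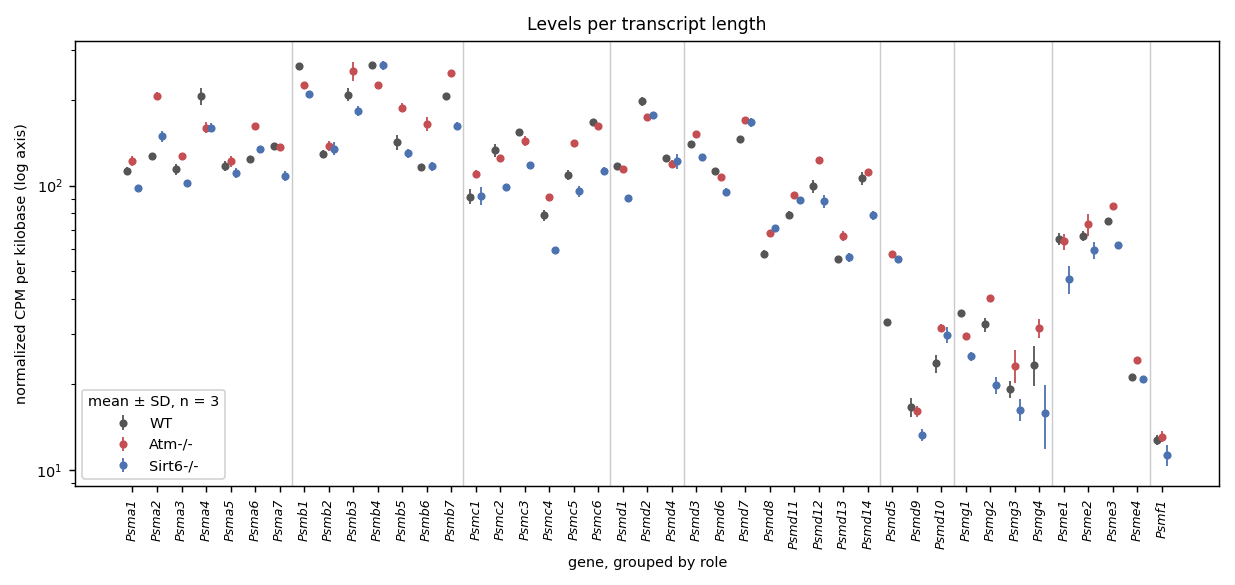
Normalized CPM per kilobase of transcript (log axis) for the 43 expressed proteasome genes, grouped by role; points are means of 3 samples and bars are SDs. Core and regulator subunits lie between 55 and 266 CPM per kilobase in WT, and the assembly chaperones lie lower.

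The genes lie on 16 chromosomes, and on chromosome 14 Psmb5 neighbours Psmb11 and Psme1 neighbours Psme2. Promoter windows of 300 bases (250 before and 50 after the annotated start, RefSeq, GRCm38.p6) were at hand for 37 of the genes, in 40 windows, and were searched on both strands for 3 motifs. The ETS core CCGGAAG, bound by ETS factors, was in 15 of the 40 windows (37.5%, in 14 genes), against 8.86% of all 32851 windows and 16.2% of the 13141 windows of genes tested. The CCAAT box, the letters CCAAT, was in 13 windows (32.5%, against 37.4% of all windows and 37.6% of those of genes tested). The core of the antioxidant response element, written TGACNNNGC, was in 6 windows (15.0%, against 12.4% of all windows and 14.2% of those of genes tested). A match of letters is a description of the sequence and not a binding site. Matches of different motifs overlapped in 0 of the 40 windows.

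The 6 stretches with an element core are shown because this motif is known from the NRF1 response and because the set includes 2 catalytic subunits. The core is in capitals, each stretch reads 5′ to 3′ along its gene, and the reverse complement of the core appears as GCNNNGTCA. Starts are those of RefSeq. Those of Psmb5, Psmc6, Psmd12, Psmd9, Psme4 and, further on, Psma2, Psmd5 and Psma4 lie inside the longer GENCODE gene, furthest inside for Psmd9 and Psmd5. Some bases printed as lying before a start are therefore within the gene by GENCODE. The core began 47 bases before the start in Psmb5 (chr14:54618009-54618067, minus strand), 9 in Psmb6 (chr11:70525323-70525381, plus strand), 227 in Psmc6 (chr14:45329574-45329630, plus strand), 247 in Psmd12 (chr11:107479278-107479314, plus strand), 31 in Psmd9 (chr5:123228134-123228192, plus strand) and 7 in Psme4 (chr11:30771743-30771799, plus strand).
Psmb5: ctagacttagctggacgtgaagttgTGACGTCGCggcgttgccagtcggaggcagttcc
Psmb6: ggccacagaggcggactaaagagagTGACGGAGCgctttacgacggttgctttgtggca
Psmc6: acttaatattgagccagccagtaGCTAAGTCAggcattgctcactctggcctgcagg
Psmd12: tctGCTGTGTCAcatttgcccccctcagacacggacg
Psmd9: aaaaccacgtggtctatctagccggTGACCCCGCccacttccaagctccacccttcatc
Psme4: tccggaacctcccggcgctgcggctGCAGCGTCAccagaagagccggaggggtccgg

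The next 4 stretches show the ETS core, in capitals, in genes that differ in their response. The first match began 132 bases before the second of 2 annotated starts in Psma6 (chr12:55398668-55398724, plus strand; this start lies inside the gene, and the window of the first holds no ETS core), 100 in Psmc6 (chr14:45329699-45329755, plus strand), 17 in Psmd12 (chr11:107479486-107479542, plus strand, where it reads as the reverse complement CTTCCGG) and 69 in Psmg1 (chr16:95990998-95991054, minus strand).
Psma6: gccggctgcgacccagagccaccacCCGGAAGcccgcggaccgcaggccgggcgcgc
Psmc6: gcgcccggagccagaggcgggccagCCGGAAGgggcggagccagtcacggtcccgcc
Psmd12: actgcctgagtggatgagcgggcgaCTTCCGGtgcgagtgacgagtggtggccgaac
Psmg1: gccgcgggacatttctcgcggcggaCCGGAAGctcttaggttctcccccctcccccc

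The first comparison asks how the proteasome genes differ between the libraries labelled Atm-/- and WT. Expression rose for 23 of the 43 tested genes and fell for 5 (edgeR quasi-likelihood test, adjusted p under 0.05 over all genes), and 15 were not called. This is 65.1% of the 43, while 68.4% of all 13283 genes tested were called, with 34.7% higher and 33.6% lower. The changes were small, with a median log2 fold change of 0.15 over the 43 genes and 0.015 over all genes, and 2 genes rose by at least 1.5-fold, the base assembly chaperone Psmd5 and the alpha subunit Psma2. Over all genes, 34.6% changed by at least this fold, 17.7% higher and 16.9% lower. Scaled by library totals, the medians were 0.32 and 0.179 and the counts 32 higher and 1 lower. The summed level of the 45 genes was 6648, 6814 and 6704 normalized CPM in WT and 7101, 7240 and 7135 in the libraries labelled Atm-/-, without overlap.

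The catalytic beta subunits all rose. Psmb5, which carries the chymotrypsin-like activity, was at 120, 132 and 118 normalized CPM in WT and at 160, 162 and 171 in the libraries labelled Atm-/-. Psmb6, with the caspase-like activity, was at 124, 117 and 120 CPM in WT and at 168, 181 and 163 in the libraries labelled Atm-/-. Psmb7, with the trypsin-like activity, was at 199, 205 and 195 CPM in WT and at 243, 240 and 241 in the libraries labelled Atm-/-. For all 3 genes every library labelled Atm-/- lay above every WT sample. The log2 fold changes were 0.40 ± 0.05 for Psmb5 (SE, n = 3 per genotype; edgeR adjusted p = 9.8e-06), 0.50 ± 0.05 for Psmb6 (edgeR adjusted p = 7.7e-07) and 0.27 ± 0.04 for Psmb7 (edgeR adjusted p = 6.3e-05). Of the other beta genes Psmb3 rose by 0.27 ± 0.06, whereas Psmb4 and Psmb1 fell by 0.24 ± 0.04 and 0.23 ± 0.04 on the log2 scale. Psmb4 was at 247, 257 and 251 CPM in WT and at 209, 218 and 215 in the libraries labelled Atm-/- (edgeR adjusted p = 0.00015). The beta ring thus held both directions, with 4 genes higher, 2 lower and Psmb2 not called (85.7% called, beside 68.4% of all genes). By library totals neither Psmb1 (-0.07, edgeR adjusted p = 0.18) nor Psmb4 (-0.08, edgeR adjusted p = 0.11) was called.

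The alpha ring also held the second largest rise and the largest fall. Psma2 was at 124, 119 and 119 normalized CPM in WT and at 188, 200 and 197 in the libraries labelled Atm-/-, a rise of 1.61-fold (log2 0.69 ± 0.05, edgeR adjusted p = 6.5e-09). Psma4 was at 212, 242 and 224 CPM in WT and at 178, 182 and 168 in the libraries labelled Atm-/- (log2 -0.37 ± 0.05, edgeR adjusted p = 2.6e-05). The groups did not overlap for either gene. Psma6 (0.38 ± 0.04) and Psma3 (0.15 ± 0.05) also rose, and Psma1, Psma5 and Psma7 were not called. Psma1, at 0.11 (edgeR adjusted p = 0.062), was called without the third library labelled Atm-/- (0.15, edgeR adjusted p = 0.028), with DESeq2 size factors (edgeR adjusted p = 0.049), with at least 10 counts in every sample (0.027), with all 9 samples in one fit (0.033) and by library totals (0.27, edgeR adjusted p = 0.00017). Library totals also called Psma5 higher (0.22, edgeR adjusted p = 0.0014), and Psma7 (0.15).

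The 120 bases before the starts of Psma2 (chr13:14613122-14613241, plus strand), Psmd5 (chr2:34870963-34871082, minus strand) and Psma4 (chr9:54950739-54950858, plus strand) are printed because these genes had the largest rises and the largest fall. Psma2 holds a CCAAT box, in capitals, 54 bases before the start, and the stretches of Psmd5 and Psma4 hold none of the 3 motifs.
Psma2: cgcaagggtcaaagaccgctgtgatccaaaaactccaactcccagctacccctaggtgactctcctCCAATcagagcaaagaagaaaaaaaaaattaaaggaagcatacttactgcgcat
Psmd5: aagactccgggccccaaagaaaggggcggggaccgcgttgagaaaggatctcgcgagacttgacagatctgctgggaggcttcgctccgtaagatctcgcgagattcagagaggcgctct
Psma4: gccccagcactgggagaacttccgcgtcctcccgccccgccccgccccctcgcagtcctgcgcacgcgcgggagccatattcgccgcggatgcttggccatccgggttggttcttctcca

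In the 19S regulator the lid rose most often. Of its 8 genes 6 were higher (75% called, beside 68.4% of all genes, with 34.7% higher). The rises were of 0.12 to 0.30 on the log2 scale, among them Psmd12 (0.30 ± 0.05) and Psmd13 (0.27 ± 0.05), together with Psmd8, Psmd11 and Psmd7. Psmd14, the deubiquitinase that removes ubiquitin from the substrate, was not called (0.07 ± 0.05), and neither was Psmd6. The call of Psmd3 (0.12, edgeR adjusted p = 0.022) was lost without the first WT sample (edgeR adjusted p = 0.056) or the second library labelled Atm-/- (edgeR adjusted p = 0.072). Among the ATPases Psmc5 (0.36 ± 0.05), Psmc1 (0.25 ± 0.05) and Psmc4 (0.20 ± 0.05) rose, and Psmc2, Psmc3 and Psmc6 were not called. Psmc2 was called lower without the third WT sample (-0.13, edgeR adjusted p = 0.04) and Psmc3 without the second library labelled Atm-/- (-0.12, edgeR adjusted p = 0.047). Of the 3 other base subunits the scaffold Psmd2 fell by 0.19 ± 0.04, and Psmd1 and the ubiquitin receptor Psmd4 were not called. By library totals Psmd2 was not called (-0.03), Psmc2, Psmc3, Psmd4 and Psmd6 turned to a positive sign, and Psmc6 (0.10, edgeR adjusted p = 0.045) and Psmd1 (0.12, edgeR adjusted p = 0.015) became higher.

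The largest rise of all was that of Psmd5, a chaperone that holds the ATPases before the base joins the core. It was at 66.4, 69.2 and 68.1 normalized CPM in WT and at 119, 116 and 117 in the libraries labelled Atm-/-, with no overlap and little spread within either group (1.72-fold, log2 0.78 ± 0.05, edgeR adjusted p = 3e-09). A second base chaperone, Psmd10 (gankyrin), rose by 0.41 ± 0.07, and Psmd9 was not called (-0.06 ± 0.07). Among the chaperones of 20S assembly Psmg4 (0.42 ± 0.12), Psmg2 (0.30 ± 0.07) and Psmg3 (0.27 ± 0.11) rose. Psmg1, the partner of Psmg2 in an early assembly complex, was at 34.4, 35.4 and 35.8 CPM in WT and at 28.4, 29.7 and 28.9 in the libraries labelled Atm-/- (log2 -0.29 ± 0.07, edgeR adjusted p = 0.0017). This pair therefore moved in opposite directions, although by library totals Psmg1 was not called (-0.12, edgeR adjusted p = 0.12). The call of Psmg3 (edgeR adjusted p = 0.041) was lost without the first WT sample (edgeR adjusted p = 0.088), the third WT sample (edgeR adjusted p = 0.12) or the third library labelled Atm-/- (edgeR adjusted p = 0.22).

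The activators Psme3 (the nuclear cap) and Psme4 (the large single-chain cap) rose by 0.18 ± 0.04 each. The interferon-inducible caps Psme1 and Psme2 and the inhibitor Psmf1 were not called. Psme2, at 0.13 (edgeR adjusted p = 0.12), was called higher without the third library labelled Atm-/- (0.21, edgeR adjusted p = 0.019). Library totals called Psme2 (0.29), Psmf1 (0.19), the beta subunit Psmb2 (0.26) and Psmd14 (0.24) higher as well. For the 15 genes not called, the nominal 95% intervals of the log2 fold change stayed between -0.20 and 0.27. The samples of the 2 genotypes did not overlap for 34 of the 43 genes, against 72.6% of all genes tested. Of 5 proliferation markers 2 rose (40% called, beside 68.4% of all genes). The summed level of the 5 was 1866 to 1967 CPM in WT and 2248 to 2325 in the libraries labelled Atm-/-. The part of cell growth in these differences was not tested. Of 4 epithelial markers 2 rose (50% called), with the 4 summing to 18.2 to 21.6 CPM in WT and 41 to 46.2 in the libraries labelled Atm-/-. The endothelial marker Kdr rose by 1.69 ± 0.17 (list sum 2.86 to 4.9 CPM in WT and 9.81 to 12.5 in the libraries labelled Atm-/-), with Pecam1 and Cdh5 near 0. Leukocyte and muscle markers were not called. The part of other cell types was not tested either. In such bulk samples a change in the kinds of cells and a change in RNA per cell cannot be told apart.

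**Figure D2:**
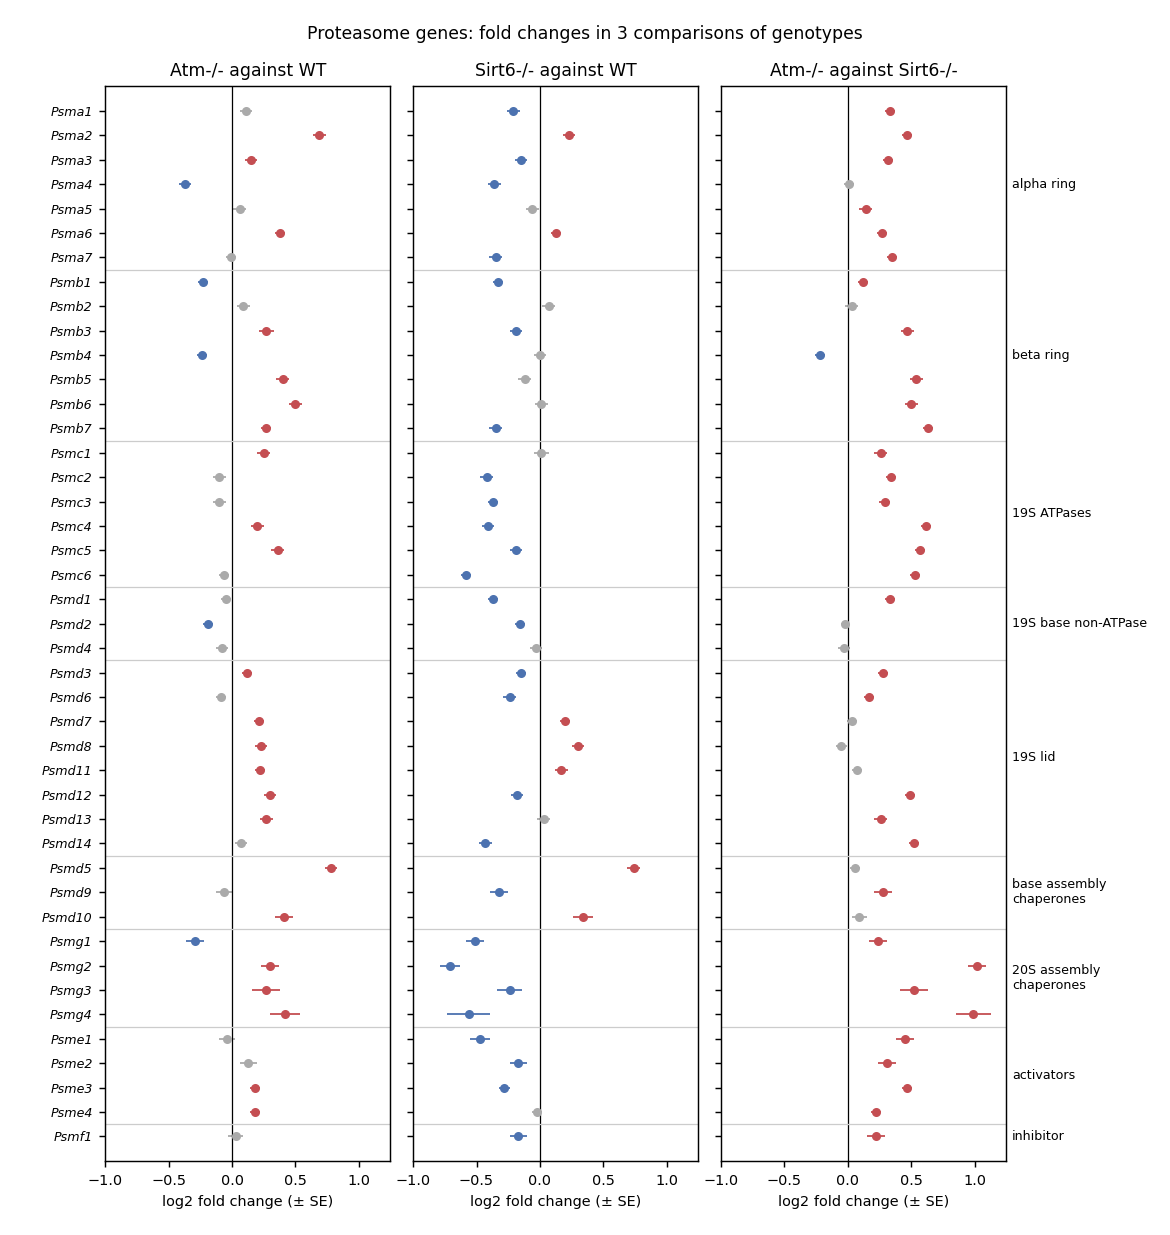
Log2 fold change of each of the 43 tested genes with its standard error in the 3 comparisons, with red points higher, blue points lower and grey points not called at an adjusted p under 0.05 (edgeR). Red points prevail in the first panel (23 against 5), blue points in the second (27 against 7) and red points in the third (33 against 1).

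The second comparison sets the Sirt6-/- samples against WT, and here most of the genes that changed were lower. Of the 43 tested genes 27 fell, 7 rose and 9 were not called. The called share was 79.1%, beside 76.6% of all 13206 genes tested, of which 39.2% were higher and 37.4% lower. The median log2 fold change was -0.18 over the 43 genes and 0.024 over all genes. With library totals the medians were -0.09 and 0.114, and 18 genes were lower and 8 higher. The summed level was 5935, 6035 and 6026 normalized CPM in Sirt6-/-, below each WT sample. A change of at least 1.5-fold was reached by 1 gene in each direction, Psmg2 downwards and Psmd5 upwards, while 45.4% of all genes changed by this fold, 25.3% higher and 20.1% lower.

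All 4 chaperones of 20S assembly fell (100% called, beside 76.6% of all genes, with 37.4% lower). Psmg2 was at 32.4, 34.4 and 36.4 normalized CPM in WT and at 20.3, 22.7 and 20.1 in Sirt6-/-, without overlap, which is 0.612 times the WT level (log2 -0.71 ± 0.08, edgeR adjusted p = 1.6e-06). Psmg1 fell to 25.1, 23.7 and 25.4 CPM (log2 -0.51 ± 0.07, edgeR adjusted p = 1.3e-05), also below every WT sample. Psmg4 was at 12.5, 11.3 and 15.3 CPM in WT and at 7.06, 8.06 and 11.3 in Sirt6-/-, so that the highest Sirt6-/- sample met the lowest WT sample (log2 -0.56 ± 0.17, edgeR adjusted p = 0.0074). Psmg3 was just past the threshold (-0.24 ± 0.10, edgeR adjusted p = 0.048) and lost its call in 4 of the 6 fits that left out a sample, at edgeR adjusted p = 0.054 without the first WT sample, 0.12 without the second WT sample, 0.10 without the first Sirt6-/- sample and 0.18 without the second. By library totals Psmg3 was not called either (-0.15, edgeR adjusted p = 0.20). Its call was also lost with the DESeq2 Wald test (adjusted p = 0.066), with at least 10 counts in every sample (edgeR adjusted p = 0.062) and with all 9 samples in one fit (edgeR adjusted p = 0.054).

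The ATPase ring fell nearly as a whole. Of its 6 genes 5 were lower (83.3% called, beside 76.6% of all genes, with 37.4% lower). The median log2 fold change of the 6 was -0.39, and Psmc1 was the exception (0.01 ± 0.06, interval -0.11 to 0.13). Psmc6 changed most, from 260, 265 and 265 normalized CPM in WT to 176, 181 and 171 in Sirt6-/-, far outside the spread of either group (log2 -0.58 ± 0.04, edgeR adjusted p = 1.7e-08). Psmc2 (-0.42 ± 0.05), Psmc4 (-0.41 ± 0.05) and Psmc3 (-0.37 ± 0.04) were close to one another, and Psmc5 fell less (-0.19 ± 0.05) and was not called by library totals (-0.10, edgeR adjusted p = 0.094). Of the other base subunits Psmd1 (-0.37 ± 0.04) and Psmd2 (-0.16 ± 0.04) fell, and Psmd4 was not called (-0.03 ± 0.05).

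The lid was split. Psmd14, the deubiquitinase, fell by 0.43 ± 0.05 on the log2 scale, and Psmd6, Psmd12 and Psmd3 fell by 0.15 to 0.24, with Psmd12 no longer called without the third Sirt6-/- sample (-0.13, edgeR adjusted p = 0.054). Psmd8 rose instead, from 85.3, 90.7 and 86.1 normalized CPM in WT to 106, 107 and 109 in Sirt6-/- (log2 0.30 ± 0.05, edgeR adjusted p = 6.7e-05), with no overlap. Psmd7, the partner of Psmd14 in the lid, rose by 0.20 ± 0.04, and Psmd11 by 0.17 ± 0.05. The deubiquitinase and its partner thus changed in opposite directions.

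Of the catalytic subunits, only Psmb7 passed the test in this comparison. It was at 156, 162 and 152 normalized CPM in Sirt6-/-, below its 195 to 205 in WT (log2 -0.35 ± 0.05, edgeR adjusted p = 7.7e-06). Psmb5 was at 116, 109 and 116 CPM, each below the lowest WT sample at 118, and narrowly missed the threshold (log2 -0.12 ± 0.05, edgeR adjusted p = 0.061), which it passed with DESeq2 size factors (0.042), with no filter (0.049), with all 9 samples in one fit (0.044) and without the first WT sample (edgeR adjusted p = 0.034) or the third (edgeR adjusted p = 0.029). Psmb6, at 116, 122 and 126 CPM, overlapped WT (0.01 ± 0.05, interval -0.08 to 0.11). Psmb1 and Psmb3 fell by 0.33 ± 0.04 and 0.19 ± 0.05. Psmb4, one of the falls in the libraries labelled Atm-/-, was at 242, 258 and 254 CPM and overlapped WT (0.00 ± 0.05, interval -0.09 to 0.09).

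In the alpha ring Psma4, Psma7, Psma1 and Psma3 fell, by 0.36, 0.35, 0.21 and 0.15 on the log2 scale, while Psma2 (0.23 ± 0.05) and Psma6 (0.13 ± 0.04) rose. The call of Psma3 was lost without the second Sirt6-/- sample (-0.14, edgeR adjusted p = 0.051), and that of Psma6 without the third WT sample (0.10, edgeR adjusted p = 0.10) or the first or the third Sirt6-/- sample (0.12, edgeR adjusted p = 0.056 each). Psme1 fell by 0.47 ± 0.08, Psme3 by 0.28 ± 0.04 and Psme2 by 0.17 ± 0.07, and Psme4 was not called. The call of Psme2 (edgeR adjusted p = 0.033) was lost without the third WT sample (edgeR adjusted p = 0.098), the first Sirt6-/- sample (edgeR adjusted p = 0.10) or the second (edgeR adjusted p = 0.13). The fall of the inhibitor Psmf1 (-0.17 ± 0.07, edgeR adjusted p = 0.043) was lost in 4 of the 6 such fits, at edgeR adjusted p = 0.086 without the first WT sample, 0.081 without the third, 0.098 without the second Sirt6-/- sample and 0.18 without the third. With at least 10 counts in every sample, neither Psme2 (edgeR adjusted p = 0.053) nor Psmf1 (edgeR adjusted p = 0.066) was called.

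Library totals also ended the calls of Psma3 (-0.06), Psmb3 (-0.10), Psmd2 (-0.07), Psmd3 (-0.06), Psmd12 (-0.09), Psme2 (-0.08) and Psmf1 (-0.08) in Sirt6-/-, with edgeR adjusted p from 0.11 to 0.32, and called Psmb2 higher (0.16, edgeR adjusted p = 0.011).

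For 33 of the 43 genes the Sirt6-/- and WT samples did not overlap, against 79.0% of all genes tested. The 9 genes not called had nominal 95% intervals between -0.23 and 0.18 on the log2 scale. Of the 5 proliferation markers 3 fell and 1 rose (80% called, beside 76.6% of all genes), and their summed level was 1617 to 1745 CPM in Sirt6-/-, below WT. Markers of other cell types that fell were Krt18 (-0.51, with 25% of the 4 epithelial markers called), Kdr (-3.89), Cd68 (-1.11) and Des (-2.11). The last 3 were each the only tested gene of their list. The untested Cdh5 averaged 0.326 CPM in Sirt6-/- and 0.19 in WT, and Ptprc 0.142 and 0.105. The epithelial list summed to 14.1 to 18 CPM in Sirt6-/- (18.2 to 21.6 in WT), the endothelial list to 0.552 to 0.84 (2.86 to 4.9 in WT), the leukocyte list to 1.23 to 2.22 (3.14 to 3.92 in WT) and the muscle list to 0.09 to 0.371 (0.596 to 1.52 in WT). The part of cell growth and of other cell types was not tested.

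**Figure D3:**
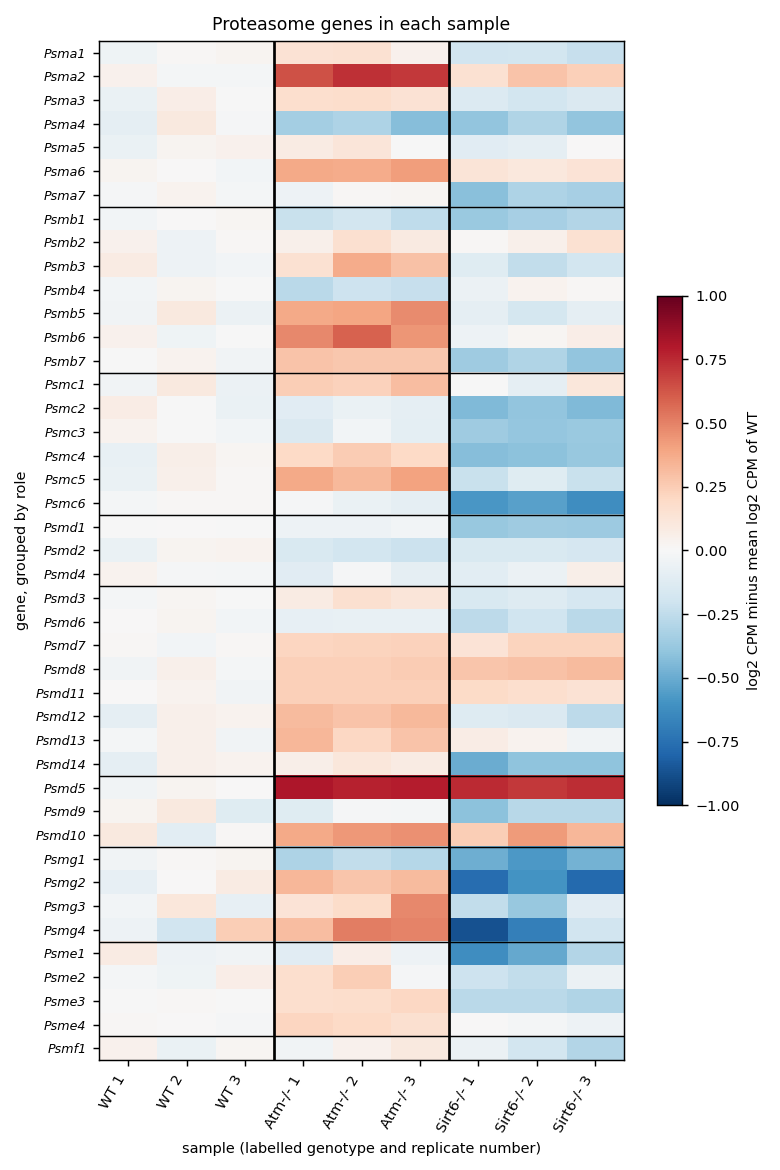
Log2 normalized CPM of the 43 tested genes in each of the 9 samples, relative to the mean of the WT samples, with rows grouped by role. The 3 samples of a genotype look alike, Psmd5 is red in all 6 samples of the other genotypes, and the ATPases and 20S assembly chaperones are mostly blue in Sirt6-/-.

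The third comparison sets the libraries labelled Atm-/- directly against Sirt6-/-, without WT. Of the 43 genes 33 were higher in the libraries labelled Atm-/-, 1 was lower and 9 were not called, a called share of 79.1% beside 75.8% of all 13460 genes tested, with 38.0% higher and 37.8% lower. The median log2 difference was 0.29 over the 43 genes and 0.002 over all genes. The samples did not overlap for 36 of the 43, against 78.2% of all genes. A difference of at least 1.5-fold was reached by 4 of the 43, all higher, against 42.0% of all genes (19.5% higher and 22.4% lower). By library totals 37 genes were higher and 1 was lower, the additions being Psmd5, Psmd7, Psmd10 and Psmd11.

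The widest differences lay in the 20S assembly chaperones. Psmg2 was at 43.2, 41.6 and 42.9 normalized CPM in the libraries labelled Atm-/- and at 20.3, 22.7 and 20.1 in Sirt6-/-, a 2.03-fold difference (log2 1.02 ± 0.07, edgeR adjusted p = 4.3e-11). Psmg4 was at 16, 18.4 and 18.2 CPM against 7.06, 8.06 and 11.3, 1.99-fold apart (log2 0.99 ± 0.14, edgeR adjusted p = 1.2e-06). Psmg3 (0.52 ± 0.11) and Psmg1 (0.24 ± 0.07) were higher as well, so all 4 chaperones of this kind were higher in the libraries labelled Atm-/-. All 6 ATPases were higher, by 0.26 to 0.62 on the log2 scale, with Psmc4 at 129, 134 and 129 CPM against 83.6, 84.7 and 86.8 at the upper end. Psmb7 (log2 0.63 ± 0.04, edgeR adjusted p = 9.6e-12), Psmb5 (0.54 ± 0.05) and Psmb6 (0.50 ± 0.05) all differed without overlap. Among the lid subunits Psmd14 (0.52 ± 0.04) and Psmd12 (0.49 ± 0.04) differed most, and all 4 activators were higher, by 0.22 to 0.47. The 20S assembly chaperones, the ATPases and the activators were thus 100% called, beside 75.8% of all genes, with 38.0% higher.

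The single gene lower in the libraries labelled Atm-/- was Psmb4 (log2 -0.22 ± 0.04, edgeR adjusted p = 3.9e-05), at 209 to 218 CPM against 242 to 258. The 9 genes not called included Psma4, Psmb2, Psmd2, Psmd4, Psmd5, Psmd7, Psmd8, Psmd10 and Psmd11, and their intervals stayed between -0.14 and 0.22. Some calls were lost when 1 sample was left out. Psma5 (0.14, edgeR adjusted p = 0.013) was lost without the first Sirt6-/- sample (edgeR adjusted p = 0.065), the second (edgeR adjusted p = 0.052) or the second library labelled Atm-/- (edgeR adjusted p = 0.056). Psmb1 (0.12) was lost without the first Sirt6-/- sample (edgeR adjusted p = 0.059) and Psmf1 (0.22) without the third (edgeR adjusted p = 0.051). All 5 proliferation markers were higher in the libraries labelled Atm-/- in this comparison (100% called, beside 75.8% of all genes). So were 3 of 4 epithelial markers (75% called, Krt18 by 2.48, Cdh1 by 1.09 and Krt8 by 0.43). Kdr (5.60), Cd68 (0.82) and Des (1.46) were higher too, each the only tested gene of its list. The untested genes of the endothelial and leukocyte lists ran the other way. Cdh5 averaged 0.154 CPM in the libraries labelled Atm-/- and 0.326 in Sirt6-/-, Pecam1 0.048 and 0.132, and Ptprc 0.0774 and 0.142. Des had 10, 12 and 3 counts in Sirt6-/-, and Myog had 0 in every sample. The part of all these markers in the differences was not tested.

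Psmd5 had the largest rise in each comparison with WT, both of which use the same 3 WT samples. In Sirt6-/- it was at 114, 111 and 113 normalized CPM, above every WT sample (log2 0.74 ± 0.05, edgeR adjusted p = 3.6e-09). It averaged 67.9 ± 1.42 normalized CPM in WT (SD, n = 3), 117 ± 1.76 in the libraries labelled Atm-/- and 113 ± 1.43 in Sirt6-/-, and in the direct comparison the last 2 were not called different (log2 0.06 ± 0.04, interval -0.02 to 0.15). By library totals that difference was called (0.12, edgeR adjusted p = 0.017). Psmd10 was at 36.9, 31.9 and 34.6 CPM in WT, at 44.8, 46.4 and 47.3 in the libraries labelled Atm-/- and at 40.8, 46.3 and 43.4 in Sirt6-/-, where it rose by 0.34 ± 0.08 without overlap. Their fellow chaperone Psmd9, with an element core in the promoter stretch above, was at 39.5 to 45.9 CPM in WT, 39.6 to 42.7 in the libraries labelled Atm-/- and 32.3 to 35.4 in Sirt6-/-. The fall of Psmd9 in Sirt6-/- (-0.32 ± 0.07) ran against the rises of the other base chaperones.

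**Figure D4:**
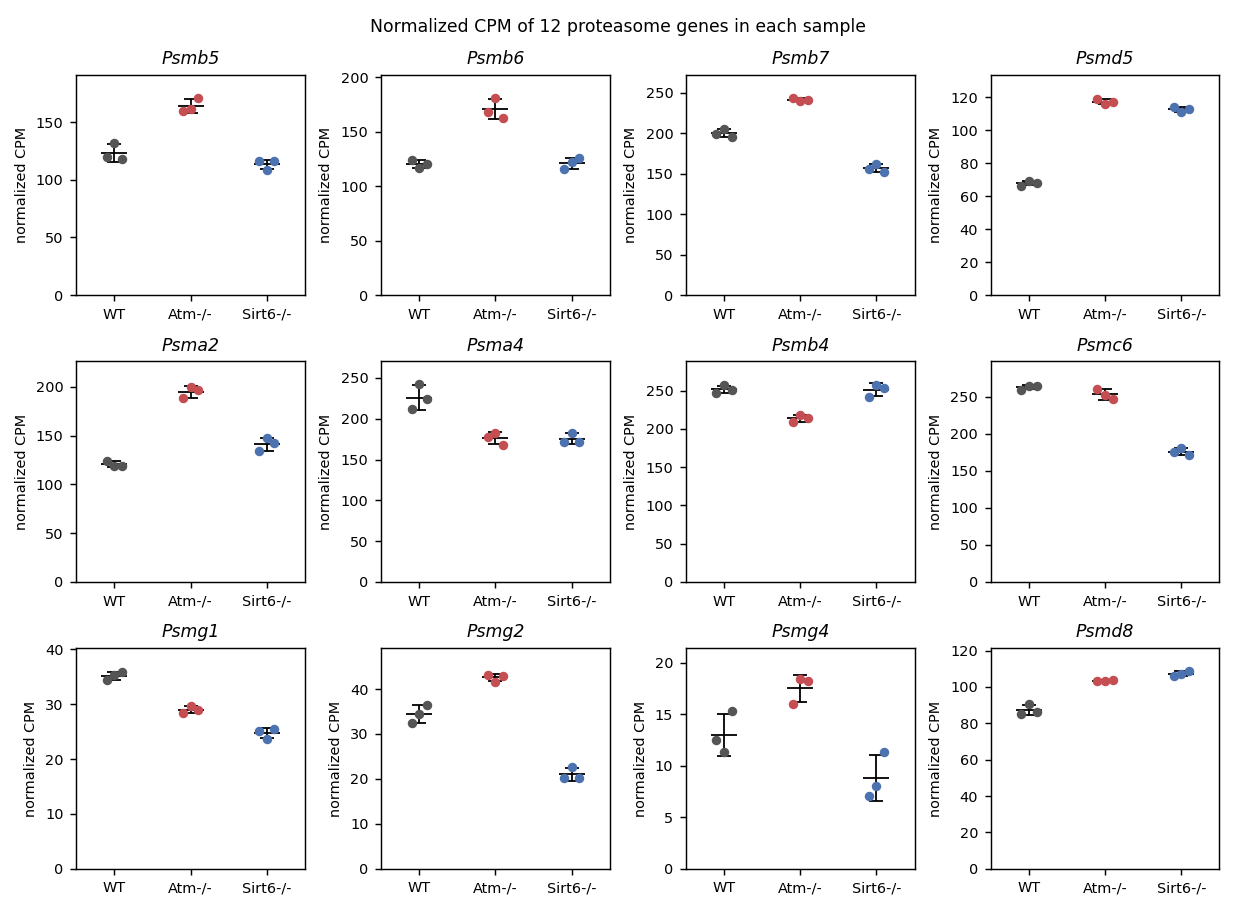
Normalized CPM of 12 proteasome genes in each sample, with coloured points for samples and black bars for the mean and SD of 3 samples, on axes that start at 0. Psmb5 and Psmb6 are high in the libraries labelled Atm-/- alone, Psmd5 is high in both other genotypes, and Psmg2 and Psmc6 are lowest in Sirt6-/-.

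Of the 6 genes with an element core in the promoter, Psmb5, Psmb6, Psmd12 and Psme4 rose in the libraries labelled Atm-/- and Psmc6 and Psmd9 were not called, with a median log2 fold change of 0.24. In Sirt6-/- Psmc6, Psmd12 and Psmd9 fell and the other 3 were not called, with a median of -0.15. All 6 were higher in the libraries labelled Atm-/- than in Sirt6-/-, as were 33 of the 43 genes, with medians of 0.50 and 0.29. Of the 14 genes with an ETS core 8 rose and 2 fell in the libraries labelled Atm-/- (median 0.18), and 2 rose and 8 fell in Sirt6-/- (median -0.17), near the medians of 0.15 and -0.18 over all 43 genes. In the direct comparison 11 of the 14 were higher and 0 lower (median 0.26). Of all 43 genes 23 rose in the libraries labelled Atm-/- and 27 fell in Sirt6-/-, and 33 were higher in the direct comparison. The matching shares of all genes tested were 34.7%, 37.4% and 38.0%. The part of either motif was not tested.

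The genes around the proteasome were read from 4 lists. In the list of NRF1 itself and its processing and partners, 2 of 10 genes rose and 4 fell in the libraries labelled Atm-/- (60% called, beside 68.4% of all genes), and 5 rose and 3 fell in Sirt6-/- (80%, beside 76.6%). Nfe2l1 was at 235, 200 and 215 normalized CPM in WT, at 218, 227 and 210 in the libraries labelled Atm-/- and at 423, 410 and 420 in Sirt6-/-. The Sirt6-/- samples stood apart from WT, at 1.93-fold (log2 0.95 ± 0.06, edgeR adjusted p = 7.9e-10), and the libraries labelled Atm-/- overlapped WT (0.00 ± 0.06), although library totals gave a call there (0.17, edgeR adjusted p = 0.018). Nfe2l2, which encodes the related factor NRF2, was at 85.7, 90.3 and 77 CPM in WT, at 125, 148 and 125 in the libraries labelled Atm-/- (log2 0.65 ± 0.07, edgeR adjusted p = 1.9e-06) and at 95.6, 109 and 98.3 in Sirt6-/- (log2 0.26 ± 0.07, edgeR adjusted p = 0.0026). This was the largest rise of the list in the libraries labelled Atm-/-, and the largest fall there was that of Ngly1, which removes sugar chains from NRF1, at 34 to 36 CPM in WT and 16.8 to 17.3 in those libraries (log2 -1.06 ± 0.08). In Sirt6-/- the largest fall was that of the small Maf gene Maff (log2 -1.46 ± 0.08). The Sirt6-/- samples thus had the highest Nfe2l1 RNA together with the lowest summed proteasome RNA.

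**Figure D5:**
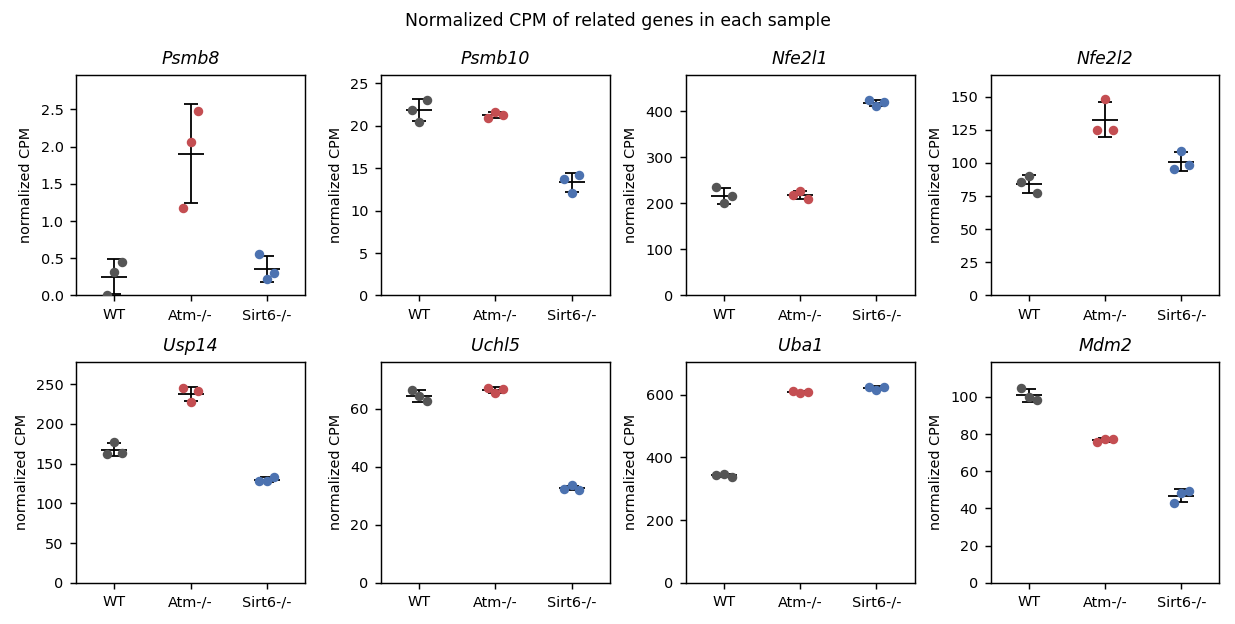
Normalized CPM of 8 related genes in each sample, with coloured points for samples and black bars for the mean and SD of 3 samples, on axes that start at 0. Nfe2l1 is high in Sirt6-/- alone, Usp14 is highest in the libraries labelled Atm-/-, and Uba1 is higher than WT in both.

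Of 10 other subunits and cofactors found in the files (1 of the 11 listed, Paaf1, was not matched by symbol), 4 rose and 1 fell in the libraries labelled Atm-/- (50% called, beside 68.4% of all genes) and 2 rose and 5 fell in Sirt6-/- (70%, beside 76.6%). Both deubiquitinases that bind the particle reversibly differed widely between these groups. Usp14 was at 162, 177 and 164 normalized CPM in WT, at 245, 228 and 241 in the libraries labelled Atm-/- (log2 0.50 ± 0.05) and at 128, 128 and 133 in Sirt6-/- (log2 -0.37 ± 0.05). Uchl5 was at 62.6 to 66.6 CPM in WT, 65.3 to 67.2 in the libraries labelled Atm-/- and 32.1 to 33.6 in Sirt6-/- (log2 -0.98 ± 0.06, edgeR adjusted p = 1.7e-09). Zfand5, a proteasome-binding protein, had the largest rise of this list in Sirt6-/- (log2 0.62 ± 0.05), and Ube3c, a ligase on the particle, the largest fall in the libraries labelled Atm-/- (-0.15 ± 0.05).

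Of 12 ubiquitin and shuttle genes 5 rose and 4 fell in the libraries labelled Atm-/-, and 4 rose and 5 fell in Sirt6-/-, so that 75% were called in each, beside 68.4% and 76.6% of all genes. Uba1, the main ubiquitin-activating enzyme, had the largest rise in both, from 344, 347 and 336 normalized CPM in WT to 612, 605 and 608 in the libraries labelled Atm-/- and 624, 614 and 624 in Sirt6-/- (log2 0.82 ± 0.04 and 0.86 ± 0.04). Mdm2, the ubiquitin ligase of p53 and a p53 target itself, had the largest fall in both, from 98.3 to 105 CPM in WT to 75.6 to 77.4 in the libraries labelled Atm-/- and 42.8 to 49.3 in Sirt6-/- (log2 -0.40 ± 0.05 and -1.11 ± 0.06). These comparisons share their WT samples.

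Of the immunoproteasome genes left out of the rule Psmb8 and Psmb9 were low and Psmb10 was at the level of the weaker assembly chaperones in CPM. Psmb8 had 0, 0.32 and 0.444 normalized CPM in WT, 1.18, 2.06 and 2.48 in the libraries labelled Atm-/- and 0.552, 0.216 and 0.3 in Sirt6-/-, and was called higher in the libraries labelled Atm-/- (edgeR adjusted p = 0.00048). Psmb9 stayed at 13 counts or fewer in every sample and was not tested. Psmb10 was at 20.5 to 23.1 CPM in WT, 20.9 to 21.6 in the libraries labelled Atm-/- and 12.1 to 14.2 in Sirt6-/- (log2 -0.71 ± 0.10, edgeR adjusted p = 9.7e-06). Of the 8 tested genes of this interferon-gamma list 3 rose and 4 fell in the libraries labelled Atm-/- (87.5% called, beside 68.4% of all genes), and 1 rose and 3 fell in Sirt6-/- (50%, beside 76.6%). The largest rise was that of Psmb8 in the libraries labelled Atm-/- (log2 2.88 ± 0.58) and of Nlrc5, the transactivator of MHC class I genes, in Sirt6-/- (3.04 ± 0.51, at 0.834 to 2.27 CPM), both from low levels in WT. The largest fall in the libraries labelled Atm-/- was that of the peptide transporter subunit Tap1 (-1.74 ± 0.24).

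Some of these counts may hold reads of other genes. Of the 45 genes 7 (Psma4, Psma5, Psmb3, Psmb5, Psmc1, Psmd2 and Psme2) have an annotated copy of at least 95% identity over at least 50% of the transcript, of which only Psme2b, 99.4% identical to Psme2, is listed among the counted genes. The kit did not mark strand, and exons of 11 genes overlap those of another gene, by at least 10% of the exonic bases in Psmb5 (Mir686, 12.1%), Psmb7 (Nek6, 11.8%), Psmd13 (Sirt3, 10.1%) and Psmd9 (Gm26745, 25.5%). How reads shared between such copies or overlapping genes were counted is not stated, so the levels of these genes are uncertain to that extent.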

How the data were processed

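Poly(A)-selected RNA of 9 MEF samples was sequenced on an Illumina instrument, and the authors deposited, per gene and sample, read counts (raw, not normalized), RPKM and transcript lengths. Per the labels the build was mm10 (GRCm38); the aligner and the counting tool are not given in the sources used here. The deposited counts were tested, and the deposited RPKM values were not tested.

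Each pair of genotypes was fitted on all genes with edgeR 4.0.16 in R 4.3.3 (quasi-likelihood F test after filterByExpr and TMM; the prior count was 0.125), and p-values were adjusted by Benjamini-Hochberg over all genes tested, with 0.05 as the threshold. Standard errors come from the F statistic. The 95% intervals apply the normal quantile to these errors, so at 3 samples per genotype they are narrower than the F test would give. Levels are CPM with TMM factors over 9 samples, or the same per kilobase. Positions are from GENCODE M21, sequences from RefSeq GRCm38.p6. A fold of 1.5, library totals, DESeq2 1.42.0, other filters, a replicate block and leave-one-out fits were alternatives. The code was tested on simulated data. Samples of equal number did not deviate together (correlations of -0.0151 to 0.0588), so the numbers do not pair them. No 2 samples of a genotype were identical.

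The genes and lists were chosen with earlier results of these data known. Any of the 45 genes could be named. Values of every sample are given for the 3 largest rises and falls per comparison, the 3 catalytic subunits, Psma8 and Psmb11; genes of the related lists are named as the largest rise or fall or as Psmb8, Psmb9, Psmb10, Nfe2l1, Nfe2l2 or Mdm2. Sample values of Psmc4 and Psmd9 were added after the values were seen. The largest fall of the interferon-gamma list in Sirt6-/- is not reported here.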

Additional observations from a re-analysis of the deposited data

How the results depend on the processing

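The counts of called genes moved by at most 1.5 times under every alternative run, except where a fold of at least 1.5 was required (2 higher and 0 lower in the libraries labelled Atm-/-, 1 and 1 in Sirt6-/-, 4 and 0 in the direct comparison) and for the genes lower in the libraries labelled Atm-/- by library totals (1 against 5). Library totals moved the medians to 0.32, -0.09 and 0.35, in the order Atm-/- against WT, Sirt6-/- against WT and Atm-/- against Sirt6-/-, but moved the median of all genes by as much. The DESeq2 Wald test gave 0.18, -0.19 and 0.32, at least 10 counts in every sample 0.18 and -0.16 in the comparisons with WT, no filter 0.17 against WT and 0.31 directly for the libraries labelled Atm-/-, and the 20S and 19S subunits alone 0.12 and -0.16 in the comparisons with WT.

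With 1 sample left out, the counts ranged from 21 to 24 higher and 5 to 6 lower in the libraries labelled Atm-/-, 6 to 7 and 23 to 26 in Sirt6-/-, and 31 to 33 and 1 to 1 directly; the medians ranged from 0.12 to 0.18, -0.20 to -0.17 and 0.28 to 0.32.

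A replicate block gave 22 higher and 5 lower genes, 7 and 26, and 33 and 1, and medians of 0.15, -0.18 and 0.29. The numbers are shared by name only, and the calls of Psmg3 were the ones lost (adjusted p = 0.054 and 0.059).

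Single genes changed sign only where the main fit did not call them. By library totals, against WT in the libraries labelled Atm-/-, these were Psma7 (0.15), Psmc2 (0.07), Psmc3 (0.06), Psmc6 (0.10), Psmd1 (0.12), Psmd4 (0.09), Psmd6 (0.08), Psmd9 (0.11), Psme1 (0.13) and Psmb10 (0.12), in Sirt6-/- Psma5 (0.03), Psmb4 (0.09), Psmd4 (0.06) and Psme4 (0.06), and directly Psmd2 (0.04), Psmd4 (0.03) and Psmd8 (0.01). At least 10 counts in every sample gave 0.01 for Psma7 (Atm-/-) and Psmb4 (Sirt6-/-), and DESeq2 size factors, the Wald test and no filter gave 0.00 for Psmc1 in Sirt6-/-. With 1 sample left out, the sign turned within -0.03 to 0.02 for Psma7, -0.08 to 0.01 for Psme1, -0.01 to 0.07 for Psmf1 and -0.05 to 0.07 for Nfe2l1 in the libraries labelled Atm-/-, within -0.03 to 0.03 for Psmb4, -0.02 to 0.04 for Psmb6, -0.05 to 0.06 for Psmc1, 0.00 to 0.06 for Psmd13, -0.08 to 0.00 for Psmd4 and -0.11 to 1.14 for Psmb8 in Sirt6-/-, and within -0.01 to 0.04 for Psma4 and -0.06 to 0.02 for Psmd4 directly. The cause was not tested. Depth did not limit the tested genes of the rule. It did limit Psma8, Psmb11, Psmb8 and Psmb9. Other genes given with fold changes also had few counts, such as Nlrc5 (5, 8 and 4 in WT), Des (10, 12 and 3 in Sirt6-/-) and Kdr (6, 4 and 12 in Sirt6-/-).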
